A study of Oryza sativa Indica Group and Oryza sativa Japonica Group with 8 samples.

Results

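The comparison described here set 4 of the 8 rice arrays of the series against each other, those of the japonica background. Os02g12290iL1, a line in which Os02g12290 was knocked down by RNA interference, was measured on 1 array from plants kept at 23 °C (the low day average) and on 1 from plants kept at 28 °C (the high one). Its wild type ZH11 was measured at the same 2 temperatures, so that each temperature gave 1 difference of the RNAi line from ZH11. The members were chosen by their line label alone, and no measured value entered the choice. The other 4 arrays held the indica pair, the TGMS (thermosensitive genic male sterile) line AnS-1 and its wild type AnN, at the same temperatures, and the series' design text counts both AnS-1 and Os02g12290iL1 as tms5. All RNA came from young panicles, taken from the stage of microspore mother cells up to meiosis. The labels do not say how many plants were pooled, which promoter drove the hairpin or how many transgenic events were studied. The name ends in L1 and is taken here as 1 line.

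RNA interference lowers a transcript through small RNAs cut from a double-stranded hairpin, and the hairpin comes from a transgene that the wild type lacks. Os02g12290 is the gene of RNase ZS1, an endonuclease that trims the 3′ end of tRNA precursors. Loss of RNase ZS1 in tms5 rice leaves plants fertile in the cool and male sterile in the warm, and messages of ubiquitin fused to a ribosomal protein are known as its targets. The tapetum, the innermost layer of the anther wall, feeds the meiocytes and supplies the material of the pollen wall.

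The arrays measured 57258 probe sets, and 22436 of them were paired with 1 gene. Median deposited intensities of the 4 japonica arrays lay between 109 and 117, and Spearman correlations between these arrays lay between 0.983 and 0.989 after quantile normalisation. Levels below are quantile normalised intensities in arbitrary units, and differences are of log2(intensity + 16). A level at or below 46.1, the lower quartile of every array, was treated as near background, and a fold against it is a lower bound. For the tissue label, 1 marker from each of 2 lists is given here, without another tissue to compare. The meiocyte argonaute MEL1 had 2193 in the RNAi line and 1925 in ZH11 at 23 °C, and 1910 in the RNAi line and 1526 in ZH11 at 28 °C. MEL1 does not stand for its list, since 16 of 28 tested meiosis probe sets were lower in the RNAi line at 28 °C. EAT1, a tapetal transcription factor, had 2938 in the RNAi line and 3305 in ZH11 at 23 °C, and 1999 in the RNAi line and 3020 in ZH11 at 28 °C. The targeted gene Os02g12290 was not analysed here. Each line had 1 array per temperature, so the number of arrays limits the precision, and p-values measure only the spread of the line difference between the 2 temperatures.

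Most probe sets showed no line difference shared by the 2 temperatures. Of 34317 tested probe sets, 45.9% had the same sign at both, and across probe sets the differences at 23 °C and 28 °C had a Pearson correlation of 0.31 and a Spearman correlation of -0.05. The 2 differences share no array, only the normalisation. A small set nevertheless differed at both temperatures. At least 2-fold higher in the RNAi line at both were 20 probe sets, or 0.0583% of those tested, and at least 2-fold lower at both were 141, or 0.411%. Another 8 (0.0233%) differed by at least 2-fold in opposite directions. The 141 were 48.0% of the 294 probe sets at least 2-fold lower at 23 °C (0.857% of those tested) and 37.3% of the 378 at 28 °C (1.1%). The 20 were 31.2% of the 64 that were higher at 23 °C (0.186%) and 9.57% of the 209 that were higher at 28 °C (0.609%). Limma, fitted to the 4 arrays with temperature as a block, called 49 probe sets (0.143%) at an adjusted p under 0.05, of which 14 were higher (0.0408%) and 35 lower (0.102%). All 49 were at least 2-fold different at both temperatures. This fit has 1 residual degree of freedom. With all 8 arrays in the fit, 9 higher and 3 lower probe sets were called. With 1 japonica array left out the line difference rests on 1 temperature alone, and the fit to the remaining 7 arrays, another model whose counts cannot be set against the 49, called 0 (452 to 1174 at an unadjusted p under 0.05).

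**Figure D1:**
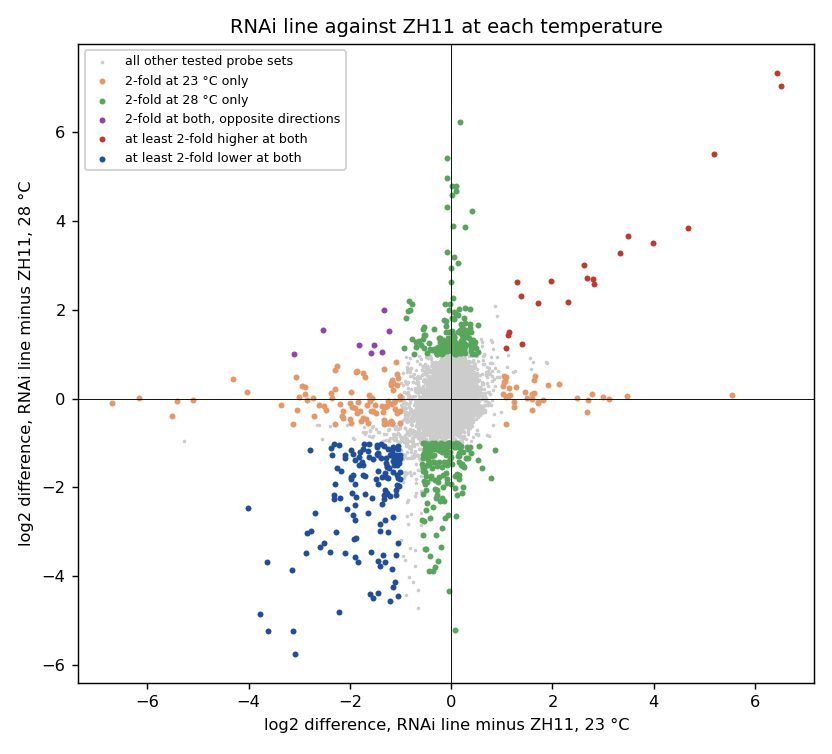
Each point is 1 of 34317 tested probe sets, with the log2 difference of the RNAi line from ZH11 at 23 °C on the horizontal axis and at 28 °C on the vertical axis. The 20 probe sets higher at both temperatures and the 141 lower at both lie in the upper right and lower left corners, while most other large differences lie along an axis and belong to 1 temperature.

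The genes higher at both temperatures included LOC4331398 and LOC4340325. LOC4331398, which has no informative name in the tables used here, had 3436 in the RNAi line and 21.8 in ZH11 at 23 °C, and 5101 in the RNAi line and 23.1 in ZH11 at 28 °C. A second probe set of the same gene had 3222 in the RNAi line and 21.4 in ZH11 at 23 °C, and 4648 in the RNAi line and 13.1 in ZH11 at 28 °C. Both probe sets were thus bright on the RNAi arrays alone, and on the 4 indica arrays the first one lay between 12.2 and 51.1. The first was at least 74.6-fold higher at 23 °C and at least 111-fold higher at 28 °C, with a mean log2 difference of 6.77 ± 0.16 (SE) and an adjusted p of 0.00232. LOC4340325 had 1720 in the RNAi line and 94.2 in ZH11 at 23 °C, and 2037 in the RNAi line and 164 in ZH11 at 28 °C (mean log2 difference 3.74 ± 0.15 (SE), adjusted p = 0.00611). A second probe set of LOC4340325 had log2 differences of 0.11 at 23 °C and 0.23 at 28 °C, so the probe sets of this gene disagree. Over the 13 fits that kept all 4 japonica arrays, LOC4331398 passed in 13 and LOC4340325 in 12.

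LOC4347693 had 1659 in the RNAi line and 151 in ZH11 at 23 °C, and 843 in the RNAi line and 72.0 in ZH11 at 28 °C. It rose by 3.32 at 23 °C and by 3.29 at 28 °C on the log2 scale (adjusted p = 0.00375). In indica it was also higher in AnS-1 at 23 °C, with 132 in AnS-1 and 21.3 in AnN, but not at 28 °C, with 49.4 in AnS-1 and 51.6 in AnN. LOC4349327 had 196 in the RNAi line and 26.9 in ZH11 at 23 °C, and 177 in the RNAi line and 27.0 in ZH11 at 28 °C. It was at least 4.25-fold and at least 3.84-fold higher in the RNAi line at the lower and the higher temperature (adjusted p = 0.0102). A second probe set of LOC4349327 gave smaller log2 differences, 0.77 and 0.80. LOC4347693 passed in 11 of the 13 fits, and LOC4349327 in 6 of the 7 that tested it. PDC, pyruvate decarboxylase of ethanol fermentation, was the one gene with an informative name among the 20. It had 691 in the RNAi line and 257 in ZH11 at 23 °C, and 506 in the RNAi line and 90.1 in ZH11 at 28 °C, and did not pass the test (adjusted p = 0.111). Of the 20 probe sets, 8 were paired with 1 gene, in 7 genes, and 14 passed. ZH11 was near background for 7 of the 20 at 23 °C and for 9 at 28 °C, the RNAi line for none at either temperature. The 20 were chosen as higher in the RNAi line and passed a filter on the mean of the 4 japonica arrays. These counts are therefore partly set by the choice. Between temperatures, 19 of the 20 differed by less than 2-fold on the RNAi arrays and 19 on the ZH11 arrays. The share over all tested probe sets was not counted. Over all probe sets the 2 arrays of a line had Spearman correlations of 0.986 (RNAi line) and 0.987 (ZH11). These counts are therefore not read as a trait of the 20.

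The line labels could be checked against the array's 64 control probe sets for foreign reporter genes, which rice lacks and which took no part in any test. Control A had 2281 at 23 °C and 2836 at 28 °C in the RNAi line, against 54.5 and 54.7 in ZH11. Control B had 3075 at 23 °C and 3222 at 28 °C in the RNAi line, against 30.3 and 18.5 in ZH11. Over the 6 arrays of the other lines, control A lay between 54.5 and 76.1 and control B between 18.5 and 30.9. The 2 control probe sets were therefore bright on both arrays labelled Os02g12290iL1 and dim on all others. The other 62 did not exceed 358 on any japonica array, and 1 of them differed by at least 2-fold at either temperature.

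Of the 141 probe sets lower at both temperatures, 98 were paired with 1 gene, in 93 genes, and 14 carried an informative gene name. C6, an anther lipid transfer protein, had 354 in the RNAi line and 5934 in ZH11 at 23 °C, and 1015 in the RNAi line and 5695 in ZH11 at 28 °C. NIP4-1, an aquaporin of the NIP family, had 373 in the RNAi line and 3267 in ZH11 at 23 °C, and 43.7 in the RNAi line and 3187 in ZH11 at 28 °C. Their ZH11 levels hardly differed between temperatures, and their RNAi levels differed in opposite directions. Neither passed the test, with a mean log2 difference of -3.24 ± 0.36 (SE) and an adjusted p of 0.0912 for C6, and -4.41 ± 0.60 (SE) and 0.133 for NIP4-1. For NIP4-1 the RNAi level at 28 °C was near background, which makes the fold there at least 69.2.

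The named genes that passed were CHS, HXK6, CP1, LOX1.1 and BIP4. CHS, chalcone synthase at the entry of the flavonoid pathway, had 199 in the RNAi line and 1895 in ZH11 at 23 °C, and 118 in the RNAi line and 1940 in ZH11 at 28 °C. It fell by 3.15 and 3.87 on the log2 scale (mean -3.51 ± 0.19 (SE), adjusted p = 0.0139). The other probe sets of CHS gave -0.44 and -0.26 at 23 °C and -0.01 and 0.18 at 28 °C, so this decrease rests on 1 of 3 probe sets. HXK6, a hexokinase, had 291 in the RNAi line and 1464 in ZH11 at 23 °C, and 144 in the RNAi line and 1264 in ZH11 at 28 °C (adjusted p = 0.0347). CP1, a cysteine protease of the tapetum, had 55.3 in the RNAi line and 340 in ZH11 at 23 °C, and 54.6 in the RNAi line and 320 in ZH11 at 28 °C. It fell to almost the same level at both temperatures, with log2 differences of -2.32 and -2.25 (adjusted p = 0.0102).

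LOX1.1, a lipoxygenase that oxidises unsaturated fatty acids, had 249.5 in the RNAi line and 1037 in ZH11 at 23 °C, and 270.3 in the RNAi line and 955 in ZH11 at 28 °C (adjusted p = 0.0206). BIP4, a chaperone of the endoplasmic reticulum, had 59.7 in the RNAi line and 189 in ZH11 at 23 °C, and 85.5 in the RNAi line and 301 in ZH11 at 28 °C (adjusted p = 0.0362). Both thus differed by between 3 and 5 times at each temperature. Among genes without an informative name, LOC107278020 had 57.9 in the RNAi line and 901 in ZH11 at 23 °C, and 36.4 in the RNAi line and 661 in ZH11 at 28 °C (adjusted p = 0.00375). LOC4346997 had 32.5 in the RNAi line and 644 in ZH11 at 23 °C, and 9.42 in the RNAi line and 721 in ZH11 at 28 °C (adjusted p = 0.0204). LOC4346997 was near background in both RNAi samples, at least 14.0-fold lower at 23 °C and at least 15.7-fold lower at 28 °C. LOC4346585 had 36.0 in the RNAi line and 365 in ZH11 at 23 °C, and 10.8 in the RNAi line and 285 in ZH11 at 28 °C (adjusted p = 0.0139). A second probe set of LOC4346585 gave -2.31 and -2.16 and passed too. LOC4351870 had 243 in the RNAi line and 1547 in ZH11 at 23 °C, and 140 in the RNAi line and 1562 in ZH11 at 28 °C (adjusted p = 0.0238). The calls of the genes that fell depended on the fit. Over the fits that kept all 4 japonica arrays and tested the probe set, CP1 passed in 11 of 12, LOC107278020 in 11 of 13, CHS and LOX1.1 in 10 of 13 and LOC4351870 in 9 of 13. HXK6 passed in 8 of 13, BIP4 in 8 of 12, LOC4346997 in 7 of 12 and LOC4346585 in 7 of 11.

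A further 7 named genes were at least 2-fold lower at both temperatures and did not pass. They included pla2-II, a phospholipase A2 (log2 differences of -1.87 at 23 °C and -3.14 at 28 °C), SAP14, a stress associated zinc finger protein (59.9 in the RNAi line and 165 in ZH11 at 23 °C, 38.0 in the RNAi line and 415 in ZH11 at 28 °C), and ACA1, a calcium pump (-1.21 and -1.26, adjusted p = 0.0519). They also included PTC1, a regulator of tapetal cell death (-1.09 and -1.41), the protein kinase CIPK23 (-1.07 and -1.11), and JAMYB, a MYB factor induced by jasmonate (-1.71 and -1.02). A second CIPK23 probe set gave 0.06 and 0.01. For SGR, which starts chlorophyll breakdown, 1 of 2 probe sets was in this group (-1.47 and -1.04, and -1.42 and -0.75 for the other). ZH11 levels of the 141 probe sets had a median log2 difference of 0.06 between temperatures, and 131 of the 141 differed by less than 2-fold. The RNAi levels had a median of -0.39, and 99 of the 141 lay further below ZH11 at 28 °C than at 23 °C. For neither count was the share over all tested probe sets taken, so neither is read as a trait of the 141. Over all tested probe sets the line differences were wider at 28 °C, with an SD of 0.36 against 0.28 at 23 °C. The 2 ZH11 arrays had a Spearman correlation of 0.987. Panicles hold many cell types, and fewer cells of a type and less RNA per cell cannot be told apart here.

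**Figure D2:**
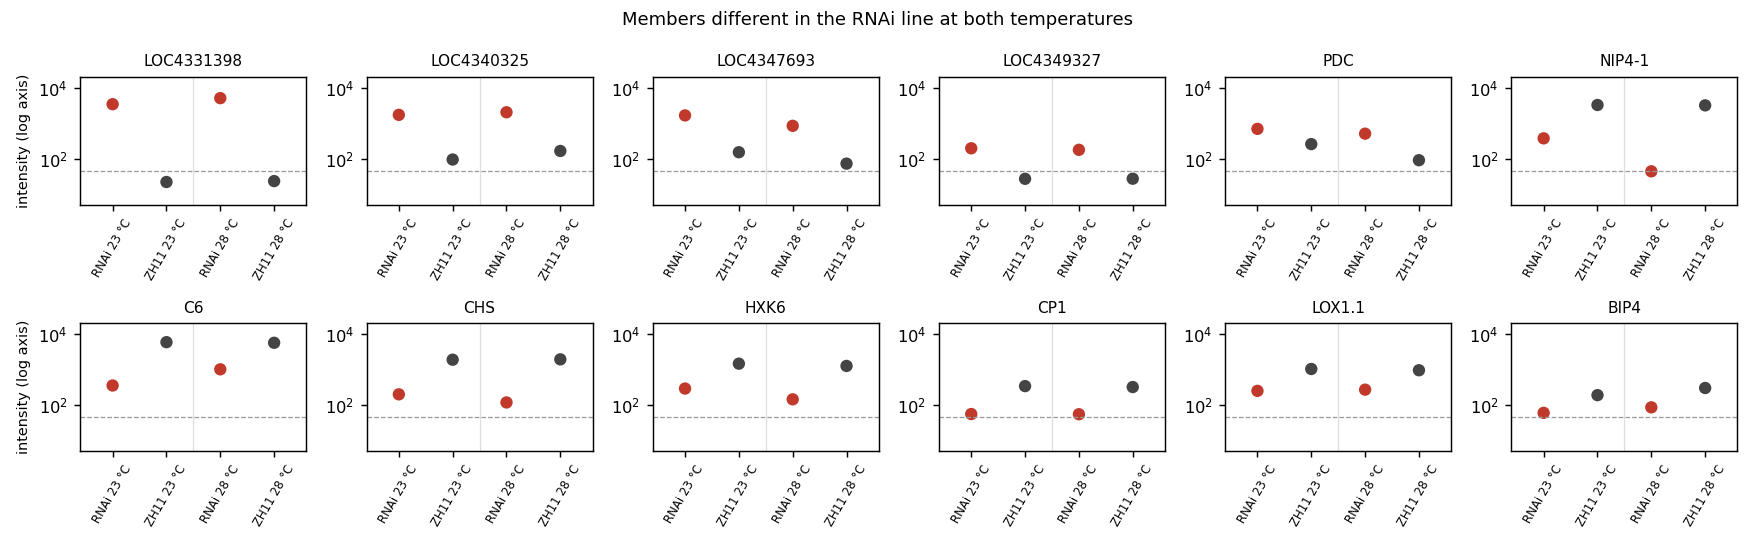
Quantile normalised intensity on a log axis for 12 genes, with the RNAi line (red) left of ZH11 (grey) at 23 °C and then at 28 °C, 1 array per point, and the lower quartile of the arrays as a dashed line. The first 5 genes are higher and the other 7 lower in the RNAi line at both temperatures, and ZH11 keeps nearly the same level at both temperatures in the lower 7.

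The same probe sets were then read in the indica pair, whose arrays took no part in choosing them. Of the 141 probe sets, 90, or 63.8%, also lay at least 2-fold below AnN in AnS-1 at 28 °C, as did 0.95% of all tested probe sets (326). These 90 are 27.6% of the 326. At 23 °C, 25 of the 141, or 17.7%, were at least 2-fold lower in AnS-1, against 3.43% of all tested probe sets, and 10 were so at both temperatures. The medians of the 141 were -1.45 at 23 °C and -1.80 at 28 °C in the RNAi line, and -0.21 at 23 °C and -1.43 at 28 °C in AnS-1. In japonica a difference at both temperatures was the rule that chose the 141, so its medians there were set by the choice. In indica, which had no part in the choice, the difference appeared mostly at 28 °C. Levels in the indica wild type moved with this: the median level of the 141 in AnN was 115 at 23 °C and 438 at 28 °C, whereas in ZH11 it was 500.1 and 578. In AnN at 23 °C, 24 of the 141 were near background, and in ZH11 0 were. The 141 were chosen as at least 2-fold higher in ZH11 than in the RNAi line at both temperatures. This favours high ZH11 levels, so the ZH11 side of the comparison is partly set by the choice. The part of the low AnN levels in the small indica difference at 23 °C was not tested.

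CHS shows the pattern, with 192 in AnS-1 and 225 in AnN at 23 °C, and 171 in AnS-1 and 1412 in AnN at 28 °C. NIP4-1 had 111 in AnS-1 and 148 in AnN at 23 °C, and 189 in AnS-1 and 2923 in AnN at 28 °C. HXK6 had 131 in AnS-1 and 115 in AnN at 23 °C, and 180 in AnS-1 and 1539 in AnN at 28 °C. On these probe sets of the 3 genes AnN was high at 28 °C alone, while ZH11 was high at both temperatures, which the choice of probe sets favoured. The other CHS probe sets gave -0.10 and -0.07 in AnS-1 at 28 °C, so CHS rests on 1 of 3 probe sets in indica too. LOX1.1 ran the other way in indica, at -1.87 at 23 °C and -0.44 at 28 °C, and ACA1 was not lower in AnS-1 at either temperature (0.78 and 0.12). Of the 20 probe sets higher in the RNAi line, 2 were at least 2-fold higher in AnS-1 at 23 °C and 0 at 28 °C, against 2.27% and 0.0845% of all tested probe sets. Going the other way, 3 of the 20 lay at least 2-fold below AnN at 23 °C and 2 at 28 °C, against 3.43% and 0.95%. LOC4349327 was among the 3, with log2 differences of -1.89 at 23 °C and -0.58 at 28 °C in AnS-1. PDC was among the 2, with -0.08 at 23 °C and -2.18 at 28 °C. The test of the difference between the backgrounds, in limma on all 8 arrays, called 0 probe sets, where 1128 had an unadjusted p under 0.05. The smallest adjusted p was 0.0852, shared by LOC4331398 and LOC4340325.

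**Figure D3:**
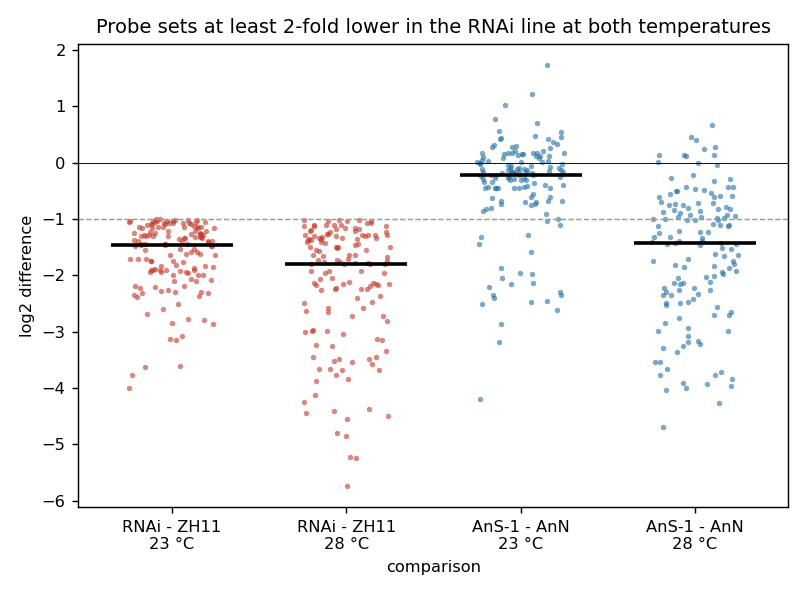
Log2 differences of the 141 probe sets that lay at least 2-fold below ZH11 in the RNAi line at both temperatures, with 1 point per probe set and a black bar at the median; the dashed line marks a 2-fold decrease. The first 2 columns chose the probe sets and lie below that line by construction, and the last 2 show AnS-1 minus AnN, with a median of -0.21 at 23 °C and -1.43 at 28 °C.

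Differences at 1 temperature only were defined as at least 2-fold at that temperature and under 1.5-fold the same way at the other. By this definition the 8 probe sets with opposite directions are in both the lower class at 23 °C and the higher class at 28 °C. At 23 °C there were 35 higher (0.102% of those tested) and 97 lower probe sets (0.283%), and at 28 °C 181 higher (0.527%) and 160 lower (0.466%). No such difference passed a test: limma on all 8 arrays called 0 probe sets for the difference at 28 °C minus that at 23 °C, where 587 had an unadjusted p under 0.05 and the adjusted p was 0.395 or more. In 70 of the 97 the array farthest from the other 3 was the RNAi line at 23 °C, lying below them, and in 25 it was ZH11 at 23 °C, lying above. In 131 of the 181 it was the RNAi line at 28 °C, lying above, and in 44 ZH11 at 28 °C, lying below. In 116 of the 160 it was the RNAi line at 28 °C, lying below. The values of these classes are therefore single arrays against single arrays, without a replicate check.

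Among the named genes lower at 23 °C alone were RIXI, MT1A and GER2. RIXI, a xylanase inhibitor, had 56.1 in the RNAi line and 520 in ZH11 at 23 °C, and 530 in the RNAi line and 491 in ZH11 at 28 °C. MT1A, a metallothionein that binds metal ions, had 151 in the RNAi line and 1356 in ZH11 at 23 °C, and 1326 in the RNAi line and 1599 in ZH11 at 28 °C. GER2, a germin-like protein, had 295 in the RNAi line and 1123 in ZH11 at 23 °C, and 4584 in the RNAi line and 3015 in ZH11 at 28 °C. In the first 2 the RNAi line at 23 °C stood below 3 arrays of similar level. Of the 97 probe sets, 58, or 59.8%, were at least 2-fold lower in AnS-1 at 23 °C as well, where 3.43% of all tested probe sets were, and 28 (28.9%) at 28 °C. RIXI had 161 in AnS-1 and 1288 in AnN at 23 °C, and MT1A had 765 in AnS-1 and 3468 in AnN.

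CYC07, which encodes a protein of the small ribosomal subunit, had the largest difference among the named genes of this class, and it rests on 1 probe set and 1 array. That probe set had 109 in the RNAi line and 5674 in ZH11 at 23 °C, and 107 in the RNAi line and 147 in ZH11 at 28 °C. The other 3 probe sets of CYC07 differed by between -0.04 and 0.11 at either temperature. LOC4346902, with 21.2 in the RNAi line and 3853 in ZH11 at 23 °C and 18.3 in the RNAi line and 20.7 in ZH11 at 28 °C, and LOC4347910, with 64.1 in the RNAi line and 2722 in ZH11 at 23 °C, were bright in ZH11 at 23 °C alone. No gene with an informative name was higher at 23 °C alone. LOC4352122 had 2239 in the RNAi line and 330 in ZH11 at 23 °C, and 404 in the RNAi line and 416 in ZH11 at 28 °C. LOC4324844 had 1183 in the RNAi line and 199 in ZH11 at 23 °C, and 202.5 in the RNAi line and 202.3 in ZH11 at 28 °C.

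Another 4 named genes were at least 2-fold lower at 23 °C and at least 2-fold higher at 28 °C. The mannose-binding lectin salT had 345 in the RNAi line and 3101 in ZH11 at 23 °C, and 10364 in the RNAi line and 5147 in ZH11 at 28 °C. The chitinase CH16 had 57.9 in the RNAi line and 410 in ZH11 at 23 °C, and 1288 in the RNAi line and 434 in ZH11 at 28 °C. CH6, kept in the same gene list as CH16, had 36.0 in the RNAi line and 169 in ZH11 at 23 °C, and 446 in the RNAi line and 184 in ZH11 at 28 °C. In all 3 the ZH11 levels of the 2 temperatures lay between the RNAi levels. AMY1.3, an alpha-amylase that degrades starch, had 254 in the RNAi line and 615 in ZH11 at 23 °C, and 370 in the RNAi line and 118 in ZH11 at 28 °C, and there the larger step between temperatures was in ZH11. A second salT probe set had 287 in the RNAi line and 2415 in ZH11 at 23 °C, and 4382 in the RNAi line and 4273 in ZH11 at 28 °C. A second CH6 probe set gave -0.74 and 1.01, so the size at either temperature depends on the probe set. In AnS-1 all 4 were below AnN by sign at both temperatures, with -3.49 and -0.93 for salT. AMY1.3 had -2.91 at 28 °C. At 23 °C both its levels were near background, with 15.3 in AnS-1 and 31.6 in AnN, so no fold is given. CH16 (17.2) and CH6 (39.2) were also near background in AnS-1 at 23 °C.

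Among the named genes higher at 28 °C alone were 2 dehydrins and a pathogenesis-related gene. RAB21, a dehydrin that accumulates in drying tissue, had 1380 in the RNAi line and 2463 in ZH11 at 23 °C, and 1064 in the RNAi line and 221 in ZH11 at 28 °C. RAB16B, a dehydrin of the same family, had 789 in the RNAi line and 1355 in ZH11 at 23 °C, and 1212 in the RNAi line and 267 in ZH11 at 28 °C. PBZ1, a pathogenesis-related protein, had 221 in the RNAi line and 399.6 in ZH11 at 23 °C, and 536 in the RNAi line and 123 in ZH11 at 28 °C. For these 3 the lowest of the 4 arrays was ZH11 at 28 °C, and at 23 °C the RNAi line lay below ZH11 by less than 2-fold. RFS, for which the tables used here give no role, had 327 in the RNAi line and 622 in ZH11 at 23 °C, and 664 in the RNAi line and 176 in ZH11 at 28 °C. A pair of genes without an informative name were bright in the RNAi line at 28 °C alone. LOC4331572 had 11964 in the RNAi line and 418 in ZH11 at 28 °C, and 402 in the RNAi line and 399 in ZH11 at 23 °C, while its other 2 probe sets gave -0.20 and 0.07 at 28 °C. LOC4342936 had 3422 in the RNAi line and 169 in ZH11 at 28 °C, and 195 in the RNAi line and 143 in ZH11 at 23 °C. Of the 181 probe sets, 3 were at least 2-fold higher in AnS-1 at 28 °C and 2 at 23 °C, against 0.0845% and 2.27% of all tested probe sets. In the other direction, 12 (6.63%) lay at least 2-fold below AnN at 28 °C and 35 (19.3%) at 23 °C, against 0.95% and 3.43%.

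**Figure D4:**
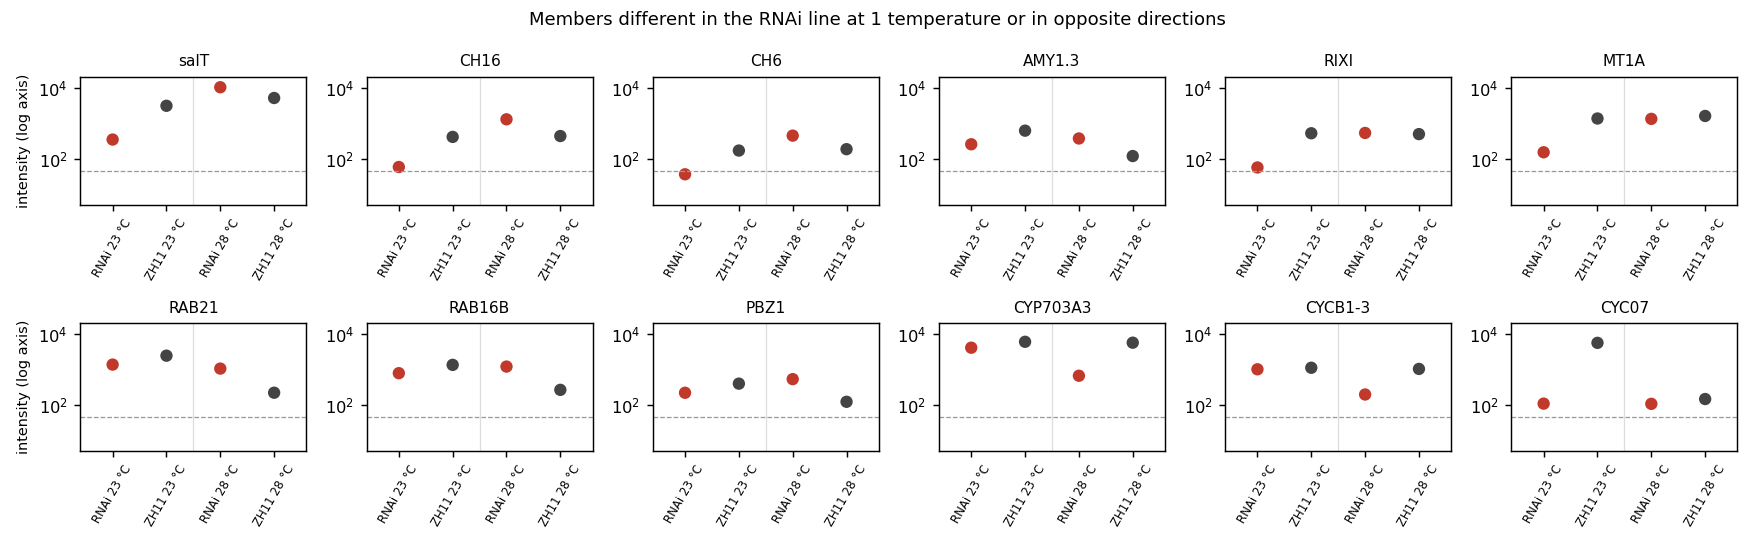
Quantile normalised intensity on a log axis for 12 genes that differed at 1 temperature only or in opposite directions, with the RNAi line (red) left of ZH11 (grey) at 23 °C and then at 28 °C, 1 array per point, and the lower quartile of the arrays as a dashed line. In salT, CH16 and CH6 the RNAi line lies below ZH11 at 23 °C and above it at 28 °C, in CYP703A3 and CYCB1-3 the RNAi line at 28 °C lies below the other 3 arrays, and in CYC07 ZH11 at 23 °C lies above them.

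The named genes lower at 28 °C alone included CYP703A3 and CYCB1-3. CYP703A3, which hydroxylates fatty acids for the pollen wall, had 4140 in the RNAi line and 6078 in ZH11 at 23 °C, and 668 in the RNAi line and 5733 in ZH11 at 28 °C. CYCB1-3, a mitotic B-type cyclin, had 1016 in the RNAi line and 1122 in ZH11 at 23 °C, and 197 in the RNAi line and 1041 in ZH11 at 28 °C. PUB73, a U-box protein of the ubiquitin ligase type, had 414 in the RNAi line and 414 in ZH11 at 23 °C, and 86.1 in the RNAi line and 374 in ZH11 at 28 °C. All 3 were within 1.5-fold of ZH11 at 23 °C and lowest in the RNAi line at 28 °C. LFNR1, the ferredoxin-NADP reductase of leaves, and CAB2R, a chlorophyll a/b binding protein, had log2 differences of -0.07 and -0.08 at 23 °C and of -1.91 and -1.42 at 28 °C. A second CAB2R probe set gave -0.08 and -0.95. The small heat shock protein HSP23.2 had 0.38 at 23 °C and -1.08 at 28 °C, APR-like1 0.55 and -1.08, and the zinc finger gene OsC3H47 0.17 and -1.12. Of the 160 probe sets, 45 (28.1%) lay at least 2-fold below AnN in AnS-1 at 28 °C and 19 (11.9%) at 23 °C, against 0.95% and 3.43% of all tested probe sets.

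A set that overlaps this class was defined by distance instead. On 18 probe sets, 12 of them with 1 gene, the RNAi line at 28 °C lay at least 8-fold below the median of the other 3 japonica arrays, which differed among themselves by less than 2-fold. Only 8 of the 18 were among the 160, since the others were lower by more than 1.5-fold at 23 °C as well. CYP703A3, LOC4341720 and LOC9266733 were among the 8. LOC4341720 had 1541 in the RNAi line and 1980 in ZH11 at 23 °C, and 118 in the RNAi line and 1950 in ZH11 at 28 °C. LOC9266733 had 408 in the RNAi line and 511 in ZH11 at 23 °C, and 34.8 in the RNAi line and 687 in ZH11 at 28 °C. The median log2 difference of the 18 was -0.66 at 23 °C and -3.71 at 28 °C in the RNAi line. The rule kept the difference at 23 °C under 2-fold and made that at 28 °C large. The contrast between these medians was therefore set by the choice, which did not fix the sign at 23 °C. In AnS-1, all 18 were at least 2-fold lower at 28 °C (median -3.18) and 17 were at 23 °C (median -1.74), against 0.95% and 3.43% of all tested probe sets. This set of 18 was defined after its values were seen, by the japonica arrays alone. The same rule gave 12 probe sets with the RNAi line at 28 °C above the other 3 arrays. Of these, 1 was at least 2-fold higher in AnS-1 at either temperature. The RNAi line at 23 °C lay above in 3 (0 higher in AnS-1) and below in 2 (2 lower in AnS-1 at each temperature). ZH11 lay above in 9 at 23 °C and in 3 at 28 °C. Recurrence in indica was thus not shared by the sets of this rule.

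Gene lists, matched by symbol, gave small medians at both temperatures. The median over all tested probe sets was 0.02 at 23 °C and 0.01 at 28 °C, and 36 of 38 lists had medians within 0.25 of 0 at both. In 33 lists no member passed the test, which 0.143% of all tested probe sets passed. The other 5 lists had 1 member each that fell, CP1 for tapetum and pollen wall, BIP4 for heat stress, LOX1.1 for jasmonate and oxylipins, HXK6 for sugar metabolism and CHS for flavonoids. The tapetum and pollen wall list had 19 tested members. Of these, C6, CP1 and PTC1 were lower by at least 2-fold at both temperatures and 0 were higher, against 0.411% and 0.0583% of all tested probe sets. By sign 10 were lower and 3 higher at both, against 6490 lower and 9256 higher among all 34317 tested probe sets. Their median was -0.09 at 23 °C and -0.15 at 28 °C. Their summed level was 40079 in the RNAi line and 50249 in ZH11 at 23 °C, and 35628 in the RNAi line and 49505 in ZH11 at 28 °C. Bright members weigh most in such a sum. Among them were C6, with 354 in the RNAi line and 5934 in ZH11 at 23 °C, and CYP703A3, with 668 and 5733 at 28 °C.

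Lists of other cell types were read beside it, with no test between lists. Over all tested probe sets, 1.04% differed by at least 2-fold at 23 °C and 1.71% at 28 °C, so a 0 in a list of this size is near the overall share. Of 28 meiosis probe sets 0 were at least 2-fold different at either temperature, with a median of 0.14 at 23 °C and -0.08 at 28 °C. Their summed level was 18842 in the RNAi line and 17200 in ZH11 at 23 °C, and 16855 in the RNAi line and 16966 in ZH11 at 28 °C. Of 23 photosynthesis members, 3 were at least 2-fold lower at 28 °C, against 1.1% of all tested probe sets, and 0 at 23 °C. The summed level was 20554 in the RNAi line and 22171 in ZH11 at 23 °C, and 15499 in the RNAi line and 19662 in ZH11 at 28 °C. For 27 MADS box probe sets, the list read for floral organs, the medians were 0.01 and 0.00. That list takes the whole family by symbol, so its median does not measure floral organ content. Seed storage genes, 10 probe sets, had medians of -0.12 and 0.09 and a summed level of 4544 in the RNAi line and 5106 in ZH11 at 23 °C, and 4686 in the RNAi line and 4388 in ZH11 at 28 °C. The part of such shifts in the differences of single genes was not tested.

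Medians of opposite sign at the 2 temperatures were common, with 15 lists negative at 23 °C and positive at 28 °C and 12 the reverse, out of 38. The chitinase, dehydration and NAC lists were among the 15. Of 22 chitinase and pathogenesis-related probe sets, 17 were lower in the RNAi line at 23 °C, 4 of them by at least 2-fold, and 2 were lower at 28 °C, where 5 were at least 2-fold higher. Over all tested probe sets, 44.0% were lower by sign at 23 °C and 47.8% at 28 °C, 0.857% were at least 2-fold lower at 23 °C and 0.609% at least 2-fold higher at 28 °C. The chitinase median was -0.24 at 23 °C and 0.22 at 28 °C. Of 54 dehydration and cold probe sets, 4 were at least 2-fold lower at 23 °C and 9 at least 2-fold higher at 28 °C, with medians of -0.10 and 0.20. NAC factors, 8 probe sets, had medians of -0.23 and 0.43, and WRKY factors, 6 probe sets, had 0.05 and 0.73, with no change of sign. WRKY71, a factor that responds to pathogens, had 547 in the RNAi line and 538 in ZH11 at 23 °C, and 1033 in the RNAi line and 357 in ZH11 at 28 °C, and its second probe set gave -0.07 and 0.88. The medians of the chitinase, dehydration and NAC lists kept their signs under all 4 ways of scaling the arrays. The 36 RNA silencing probe sets, argonaute and Dicer genes among them, had medians of 0.09 and -0.10 and 0 members at least 2-fold different at either temperature, near the overall shares of 1.04% and 1.71%.

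**Figure D5:**
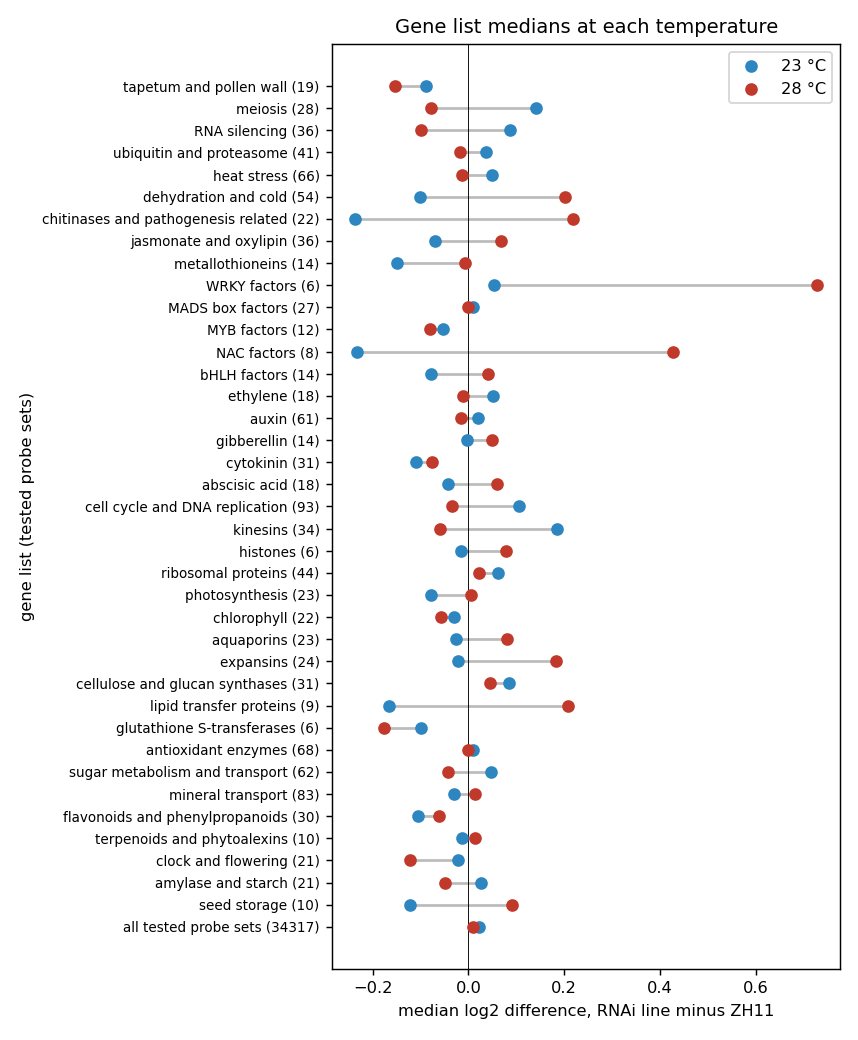
Median log2 difference of the RNAi line from ZH11 for 38 gene lists and for all tested probe sets, with 1 blue point for 23 °C and 1 red point for 28 °C per list and the number of tested probe sets in brackets. Chitinases, dehydration genes and NAC factors lie left of 0 at 23 °C and right of it at 28 °C, and the WRKY point at 28 °C (0.73) lies farthest from 0.

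Other list members differed in the same direction at both temperatures without passing. The glutathione S-transferase GSTU1 had 644 in the RNAi line and 1235 in ZH11 at 23 °C, and 339 in the RNAi line and 1150 in ZH11 at 28 °C (adjusted p = 0.188). SWEET15, a sugar exporter, had 80.6 in the RNAi line and 170 in ZH11 at 23 °C, and 64.9 in the RNAi line and 183 in ZH11 at 28 °C (adjusted p = 0.0968). HSFA3, a heat stress transcription factor, had 710 in the RNAi line and 417 in ZH11 at 23 °C, and 936 in the RNAi line and 571 in ZH11 at 28 °C (adjusted p = 0.168). The 3 genes kept their direction at both temperatures at less than 4-fold. The metal pump HMA5 (log2 differences of -0.77 and -1.34), MADS55 (-0.87 and -1.35) and the auxin response gene IAA31 (0.57 and 0.53) did likewise.

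Ubiquitin-L40 genes, the known targets of RNase ZS1, showed nearly equal levels in the 2 lines. Ub-CEP52-1 had 6153 in the RNAi line and 6065 in ZH11 at 23 °C, and 5934 in the RNAi line and 5841 in ZH11 at 28 °C. Ub-CEP52-2 had 4491 in the RNAi line and 4268 in ZH11 at 23 °C, and 4145 in the RNAi line and 4291 in ZH11 at 28 °C. Their mean log2 differences were 0.02 ± 0.11 (SE) and 0.01 ± 0.11 (SE), and they are positive or negative depending on the scaling of the arrays (-0.0049 and -0.0022 without normalisation). A p that misses the threshold does not show equal levels.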

How the data were processed

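Each line was measured on 1 Affymetrix rice array per temperature. The deposited values are linear intensities, for which the authors used RMA and the Affymetrix program Expression Console (source: the submitters' processing notes). The steps inside that program, its version and the build are not given in the sources used here. The 8 arrays were quantile normalised together, since they came on 3 scales, 64 control probe sets were left out, and log2(intensity + 16) was taken. The upper 60% of probe sets by mean over the 4 japonica arrays were tested (34317). Limma 3.58.1 in R 4.3.3 fitted line with temperature as a block (two-sided, Benjamini-Hochberg adjusted p under 0.05). The difference between temperatures and that between backgrounds were fitted on all 8 arrays, so their spread comes from 1 or 2 residual degrees of freedom and the limma prior. The scripts were tested on simulated data. Probe sets with several genes were named for none.

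Of probe sets with 1 gene, the text names those that passed with the largest difference shared by both temperatures, then those at least 2-fold different at both, the leading genes of each class at 1 temperature, and the members of each list with the largest shared difference or gap between temperatures. The members and lists were chosen with earlier results of these data known. Scaling, pseudocount, filter, fold threshold, block and each array in turn were varied.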

Additional observations from a re-analysis of the deposited data

Results flagged for a closer look

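The 4 named genes with opposite directions at the 2 temperatures were singled out because the RNAi line lay below ZH11 at 23 °C and above it at 28 °C. The log2 differences were -3.11 and 1.01 for salT, -2.53 and 1.54 for CH16, -1.83 and 1.204 for CH6, and -1.23 and 1.53 for AMY1.3. The interaction test in limma gave each an adjusted p of 1.00, so the difference between temperatures did not pass.

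A pair of control probe sets for foreign reporter genes, outside all tests, were bright in the RNAi line alone. Control A had 2281 at 23 °C and 2836 at 28 °C in the RNAi line, and control B had 3075 and 3222. On the 6 arrays of the other lines they did not exceed 76.1 and 30.9.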

How the results depend on the processing

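The count of limma calls, 14 higher and 35 lower, depended on the setting. It was 333 higher and 789 lower with each array centred on its median, 55 and 287 with a trended and robust prior, 26 and 136 with no filter, 9 and 3 with all 8 arrays, 8 and 1 with no temperature block, and 3 and 4 with 1 probe set per gene. Lower calls alone moved to 59 on the deposited scale, 21 with a pseudocount of 1, 12 with the upper 40% and 116 at an adjusted p under 0.1. With any 1 japonica array left out, the 7-array fit, another model that reads the line at 1 temperature, gave 0 to 0 calls in either direction, and these cannot be set against 14 and 35. The prior had 207 degrees of freedom with centring and 4.04 in the fit reported; the cause was not tested. At 1.5-fold, 54 probe sets were higher and 344 lower at both temperatures, 149 and 648 at 23 °C, 737 and 859 at 28 °C, 95 and 304 at 23 °C only, and 683 and 515 at 28 °C only. At 3-fold, 41 were lower at both, 36 higher and 133 lower at 23 °C, 63 and 178 at 28 °C, 19 and 56 at 23 °C only, and 45 and 57 at 28 °C only. With 1 probe set per gene, 6 were higher and 86 lower at both, 25 and 189 at 23 °C, 114 and 212 at 28 °C, 13 higher at 23 °C only, and 101 and 80 at 28 °C only. With the upper 40%, 13 were higher at both, 39 at 23 °C and 21 at 23 °C only. With a limit of 1.2-fold at the other temperature, 87 were lower at 28 °C only. The 90 probe sets also lower in AnS-1 became 241 at 1.5-fold, 27 at 3-fold, 59 with a pseudocount of 64 and 53 with 1 probe set per gene. The mean difference turned negative for Ub-CEP52-1 (-0.0049 on the deposited scale, -0.0052 with centring) and Ub-CEP52-2 (-0.0022 and -0.0025), and for Ub-CEP52-2 it lay between -0.0497 and 0.0733 with 1 array left out. The interaction test called 0 probe sets under all settings run. The fit reported pairs the lines by temperature, and its value with no such pairing is given above. With 1 array per line and temperature, differences at 1 temperature have no replicate check, and levels under 46.1 give only bounds.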
